A study of Mus musculus with 24 samples.

Results

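The mRNAs described here encode the initiation and elongation factors of cytoplasmic translation. They were taken by gene symbol: a probe set entered when its only symbol began with Eif1 to Eif6, Eef1 or Eef2, without the Argonaute genes once named Eif2c and without the 4E-binding proteins. This gave 147 of 45037 probe sets and 56 of 18193 genes, and the symbol rule used no measured value. The tissue was the cerebral cortex of males of the FVB strain, taken at postnatal day 7. The groups were Fmr1 KO polyribosomal RNA, Fmr1 KO total RNA, WT polyribosomal RNA and WT total RNA, with 6 Affymetrix Mouse 430 2.0 arrays each. The KO mice lacked Fmr1, which encodes FMRP, an RNA-binding protein, and the WT mice were their littermates. Each of the 12 lysates pooled 2 mice of a genotype and gave 1 polyribosomal and 1 total array. The 2 arrays of a lysate were matched by replicate number, as the sample titles do not name the lysate.

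Polyribosomal RNA was the pool of gradient fractions 10 to 13, which the protocol assigns to mRNAs with at least 6 ribosomes, so mRNAs with fewer ribosomes or none were not in that pool. Total RNA was 20% of the cleared cytoplasmic lysate, set aside before the gradient. The labels name the KO only as Fmr1 null and give no allele. In such whole-tissue RNA, fewer cells of a type and less RNA per cell cannot be told apart.

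Translation begins when the initiator tRNA, carried by eIF2, meets the small ribosomal subunit together with eIF1, eIF1A, eIF3 and eIF5. The eIF4 factors bring the mRNA by its cap, and eIF5B joins the large subunit. eEF1A then delivers each aminoacyl-tRNA, and eEF2 moves the ribosome along. Several of these factors are points of control in neurons, among them eIF2B and the eIF2 kinases, eIF4E, and eEF2 through its kinase. FMRP is itself known as a regulator of translation in brain, and the design asks which mRNAs change their polyribosomal share when it is missing.

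The genotype labels were checked on Fmr1. Its brightest probe set averaged 6.19 ± 0.48 in Fmr1 KO polyribosomal RNA and 9.90 ± 0.21 in WT polyribosomal RNA (log2 value, SD, n = 6 each), a 13.1-fold lower signal (limma adjusted p = 4.355e-08). In total RNA it averaged 6.38 ± 0.16 in Fmr1 KO and 9.66 ± 0.18 in WT (SD, n = 6 each), 9.69-fold lower (limma adjusted p = 1.286e-10). For all 3 Fmr1 probe sets the KO arrays lay below the WT arrays without overlap, in polyribosomal and in total RNA. Polyribosomal arrays correlated with the others of their group at 0.993 to 0.996 on average, and total arrays at 0.996 to 0.997. Markers of excitatory cortical neurons reached the level used for testing for 6 of 6 genes, those of interneurons for 5 of 5 and those of astrocytes for 5 of 5, while the blood markers reached it for 0 of 2. In between were the oligodendrocyte lineage with 4 of 5, microglia with 3 of 5 and endothelium with 1 of 3. Of the markers of other brain regions, 1 of 3 for cerebellum and hindbrain and 1 of 2 for striatum reached it. The summed linear level of 3 choroid plexus markers ran from 18.7 to 4541 over Fmr1 KO polyribosomal arrays. Over WT polyribosomal arrays it ran from 25.0 to 4700. The 1 choroid plexus marker bright enough for testing gave a KO minus WT log2 difference of -2.35 in polyribosomal RNA and -2.01 in total RNA. Neither difference was past the test used below, and the part of choroid plexus in the results was not tested.

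A gene was represented by its brightest probe set, judged by the mean of all 24 arrays, and was tested when this probe set reached a log2 value of 4 in 6 or more arrays of a comparison. Of the 56 factor genes, 53 passed this in all 5 comparisons. The others were Eif2ak2, the double-stranded RNA-activated eIF2 kinase, with a mean of 3.77, Eif4a3, the helicase of the exon junction complex, with 2.44, and Eef2kmt, an eEF2 methyltransferase, with 2.04. A gene passed a comparison at a limma p below 0.05 after Benjamini-Hochberg adjustment over all probe sets tested. All differences below are log2 differences and are relative, because the arrays were normalized to one another.

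The 53 factor mRNAs did not move as one body between total and polyribosomal RNA. In Fmr1 KO cortex 14 were higher and 16 lower in polyribosomal than in total RNA, and 23 did not pass. These 30 genes were 56.6% of the 53, against 66.9% of the 9700 genes tested there, of which 38.7% were higher and 28.2% lower. In WT cortex 18 were higher, 15 lower and 20 did not pass. These 33 genes were 62.3% of the factors, against 65.9% of all 9725 genes tested, of which 37.5% were higher and 28.4% lower. The median factor difference was 0.05 in Fmr1 KO and -0.003 in WT, and the median over all genes was 0.09 in both genotypes. The members' share of passing genes was thus not above that of all genes in either genotype, and nothing particular to the factors is read from these counts.

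The same direction passed in both genotypes for 27 of the 53 genes, 13 higher and 14 lower. Over the 9647 genes tested in both, 59.7% did so, 33.9% as higher and 25.8% as lower. A further 17 passed in neither. By their brightest probe sets, Eef1aknmt, Eif3c, Eif4enif1, Eif2ak4 and Eif3b passed as higher in WT and not in KO, and Eif1a as higher in KO and not in WT. Eef1a1 and Eef1a2 passed as lower in KO and not in WT, and Eif2ak1 as lower in WT and not in KO. None of these 9 genes is shown to differ between genotypes, because the test of the difference itself, given further on, passed for 0 of 53. The KO and WT mean differences had the same sign for 50 of 53 genes and correlated at r = 0.966 over the 53 genes, which share the same probe sets on every array.

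**Figure D1:**
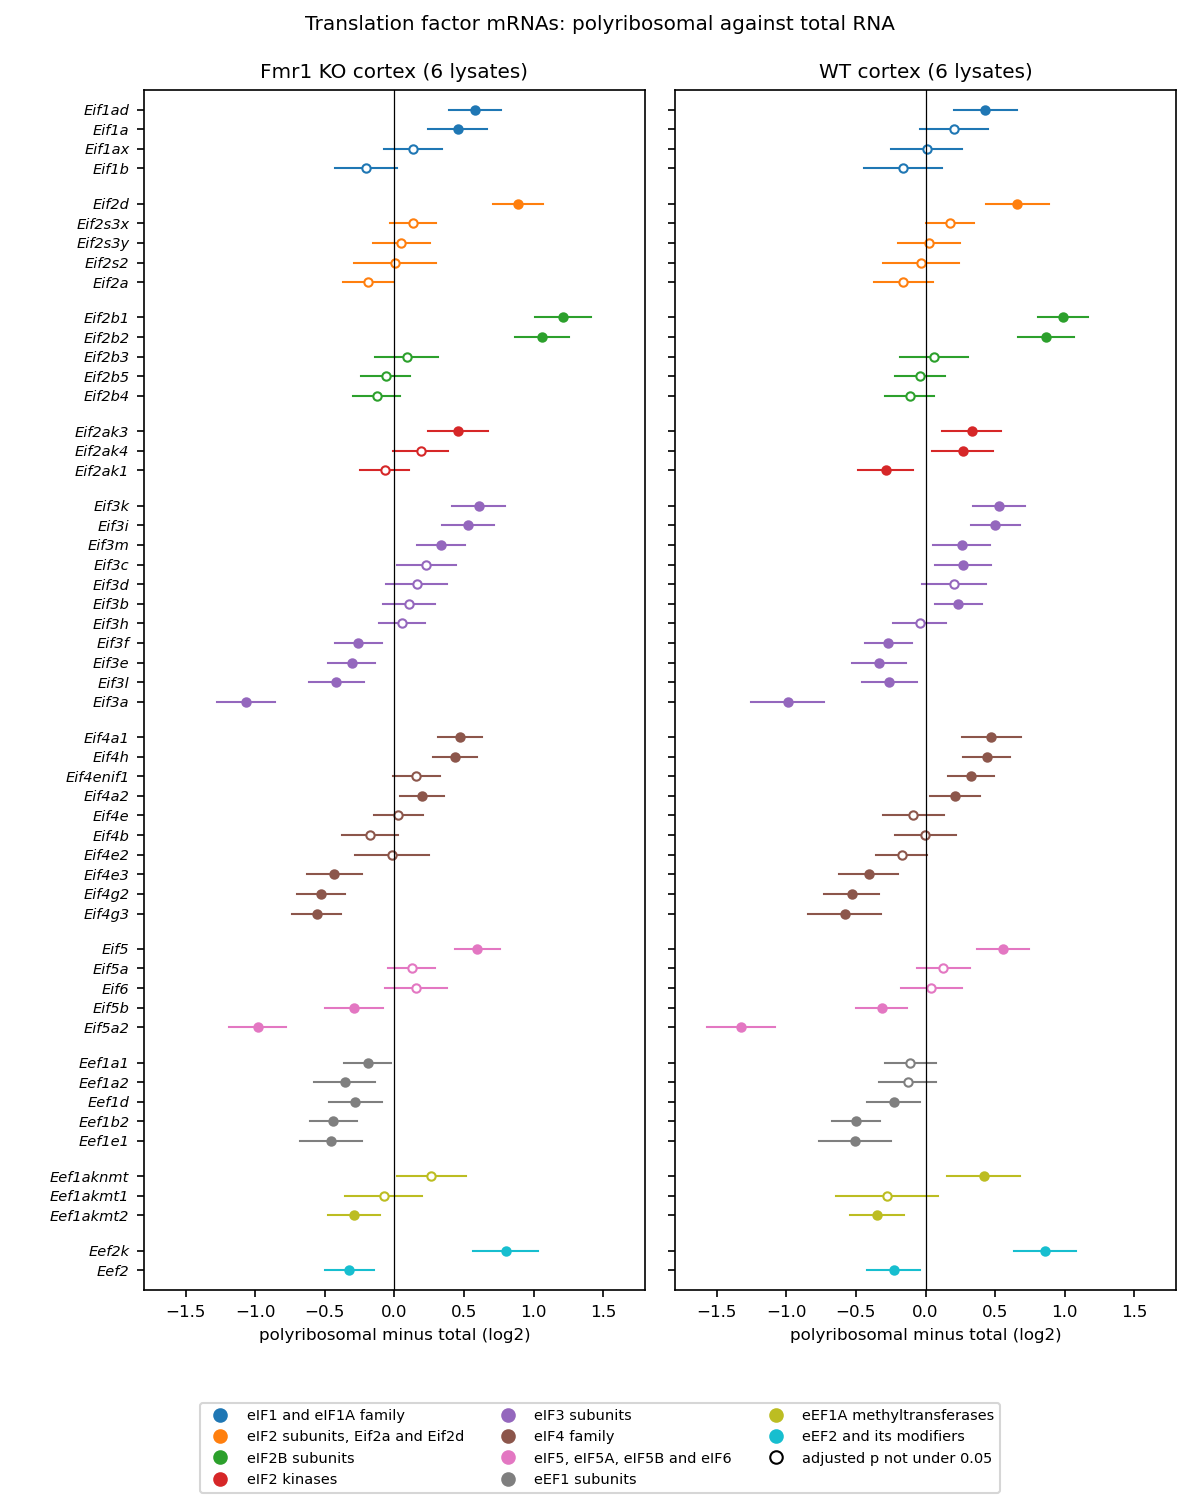
Polyribosomal minus total difference (log2, horizontal axis) of the 53 tested factor genes in Fmr1 KO lysates on the left and WT lysates on the right, with 95% limma confidence intervals, grouped by role. Filled points passed the test. Eif2b1 and Eif2b2 lie farthest to the right and Eif5a2 and Eif3a farthest to the left in both genotypes.

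The largest rises were those of Eif2b1 and Eif2b2, which encode subunits of eIF2B, the exchange factor that reloads eIF2 with GTP. Eif2b1 encodes its alpha subunit. Its log2 value ran from 7.75 to 8.15 (median 7.87) in Fmr1 KO polyribosomal RNA, against 6.51 to 6.86 (median 6.72) in Fmr1 KO total RNA. In WT it ran from 7.37 to 7.98 (median 7.66) in polyribosomal RNA, against 6.50 to 6.78 (median 6.71) in total RNA. Every polyribosomal array lay above every total array of its genotype. The difference was 1.21 in KO, a 2.32-fold higher signal (SE 0.09, limma adjusted p = 7.25e-07, 6 of 6 lysates), and 0.99 in WT, 1.98-fold (SE 0.08, limma adjusted p = 1.71e-06, 6 of 6 lysates).

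Eif2b2, the beta subunit, behaved alike. It ran from 8.95 to 9.41 (median 9.27) in Fmr1 KO polyribosomal RNA, against 8.01 to 8.31 (median 8.17) in KO total RNA. In WT its range was 8.84 to 9.32 (median 8.99) in polyribosomal RNA, against 7.95 to 8.39 (median 8.16) in total RNA. Again the arrays did not overlap in either genotype, and the differences were 1.06 in KO and 0.86 in WT (SE 0.09 each). Its brightest probe set is of a kind that can bind related transcripts, but the other 2 probe sets of Eif2b2 gave 1.20 and 0.94 in KO and 1.12 and 0.65 in WT. The remaining subunits did not pass. Eif2b4, the delta subunit, gave -0.13 in KO and -0.11 in WT, Eif2b3, the gamma subunit, 0.09 and 0.06, and Eif2b5, the catalytic epsilon subunit, -0.06 and -0.04. Of the 5 eIF2B mRNAs, 2 therefore rose and 3 did not pass. Of all genes tested, 38.7% were higher in KO and 37.5% in WT.

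Eif2d encodes a factor that places tRNA on the ribosome without eIF2. Its values were 8.37 to 8.94 (median 8.57) in Fmr1 KO polyribosomal RNA, against 7.53 to 7.91 (median 7.74) in KO total RNA. In WT they were 8.20 to 8.69 (median 8.30) in polyribosomal RNA, against 7.56 to 7.81 (median 7.76) in total RNA. No polyribosomal array reached down to the total arrays. The differences were 0.89 in KO and 0.66 in WT (SE 0.08 and 0.10), and its second measured probe set gave 0.90 and 0.76.

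The measured subunits of eIF2 itself, the carrier of the initiator tRNA, stayed near 0 by their brightest probe sets. Eif2s1, which encodes the alpha subunit, was not analysed here. Eif2s3x and Eif2s3y, the gamma subunit genes of the X and the Y chromosome, gave 0.13 and 0.05 in KO and 0.18 and 0.03 in WT. Eif2s2, the beta subunit, gave 0.00 in KO and -0.03 in WT, but its probe sets disagreed, as described further on. Eif2a, another factor that can bring the initiator tRNA, gave -0.19 in KO and -0.16 in WT. None of these 4 passed in either genotype by the brightest probe set. The other tested probe set of Eif2a, however, passed as lower in both, at -0.28 in KO and -0.31 in WT. Of the 15 alternative settings for each genotype, Eif2a passed in 5 in KO and 2 in WT, and Eif2s3x in 1 in KO and 6 in WT.

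The kinases that inhibit eIF2 were mixed. Eif2ak3, the PERK kinase of the endoplasmic reticulum, rose in both genotypes, by 0.45 in KO and 0.33 in WT (SE 0.10 each). Eif2ak4, the GCN2 kinase that senses uncharged tRNA, gave 0.19 in KO, where it did not pass, and 0.27 in WT, where it passed. Eif2ak1, the haem-regulated kinase, gave -0.07 in KO, where it did not pass, and fell by 0.29 in WT. Neither of these 2 WT calls was kept in every setting. That of Eif2ak4 was lost without WT lysate 1, 2, 3, 5 or 6, and that of Eif2ak1 without lysate 3 or 5. Of the 3 tested probe sets of Eif2ak1, 2 passed as lower in WT and 0 in KO.

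Among the mRNAs with symbols beginning with Eif1, Eif1ad rose by 0.58 in KO and 0.43 in WT. Eif1a rose by 0.45 in KO (SE 0.10, limma adjusted p = 0.00152, 6 of 6 lysates) and gave 0.20 in WT, which did not pass. Eif1ax gave 0.13 and 0.01, and Eif1b, a relative of the start-codon factor eIF1, -0.20 and -0.16 in KO and WT, none past the test by the brightest probe set. Of the 3 tested probe sets of Eif1ax, 1 passed as higher in KO and 0 in WT.

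The eIF3 complex, which holds the small subunit, eIF4G and the mRNA together, was split. Of 11 subunit mRNAs, 3 were higher, 4 lower and 4 not past the test in KO. In WT 5 were higher, 4 lower and 2 not past the test. All genes tested gave 38.7% higher and 28.2% lower in KO, and 37.5% and 28.4% in WT. Eif3k, Eif3i and Eif3m were higher in both genotypes, and Eif3a, Eif3l, Eif3e and Eif3f were lower in both. Eif3a encodes the largest subunit, on which the complex is built. Eif3k and Eif3l are the subunits that are bound to each other, and their mRNAs went in opposite directions.

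Eif3a had the largest fall of the complex. Its values were 9.53 to 10.11 (median 9.89) in Fmr1 KO polyribosomal RNA, against 10.84 to 11.15 (median 10.94) in KO total RNA. In WT they were 9.51 to 10.30 (median 9.95) in polyribosomal RNA, against 10.72 to 10.97 (median 10.94) in total RNA. The arrays of the RNA kinds did not overlap in either genotype. The difference was -1.07 in KO, a 2.10-fold lower signal (SE 0.09, limma adjusted p = 2.21e-06, lower in 6 of 6 lysates), and -0.99 in WT, 1.99-fold lower (SE 0.12, limma adjusted p = 2.76e-05, lower in 6 of 6 lysates). All 4 probe sets of Eif3a fell in both genotypes, by 0.77 to 1.48 in KO and by 0.66 to 1.19 in WT.

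Eif3k rose most within the complex. It ran from 10.61 to 11.35 (median 10.91) in Fmr1 KO polyribosomal RNA, against 10.06 to 10.68 (median 10.32) in KO total RNA. Its WT values were 10.63 to 10.98 (median 10.82) in polyribosomal RNA, against 9.93 to 10.50 (median 10.29) in total RNA. The KO arrays overlapped and the WT arrays did not, but within lysates it was higher in 12 of 12. The differences were 0.60 in KO and 0.53 in WT (SE 0.09 each).

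The other eIF3 changes were smaller. Eif3i rose by 0.53 in KO and 0.50 in WT, and Eif3m by 0.33 and 0.26. Eif3l fell by 0.42 in KO and 0.26 in WT, Eif3f by 0.26 and 0.27, and Eif3e by 0.31 and 0.34. Eif3e, however, rests on 1 probe set of the kind that can bind related transcripts. Its other 2 tested probe sets gave -0.07 and -0.05 in KO and -0.08 and 0.03 in WT, and none of these passed. Eif3c gave 0.23 in KO, which did not pass, and 0.27 in WT, which did, and Eif3b gave 0.10 and 0.24 with the same outcome. Of the 4 tested probe sets of Eif3c, however, 1 passed as higher in KO and 2 in WT. In 5 of 15 alternative settings Eif3c passed in KO. The WT call was lost without lysate 3 or 6 for Eif3b, without lysate 1, 2, 3 or 6 for Eif3c, without lysate 3 or 5 or with the mean of its probe sets for Eif3l, and without lysate 1, 5 or 6 for Eif3m. Eif3h, at 0.05 and -0.04, and Eif3d, at 0.16 and 0.20, passed in neither genotype, and without WT lysate 4 Eif3d passed in WT at 0.31 (limma adjusted p = 0.004031).

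In the eIF4 family, the helicase genes Eif4a1 and Eif4a2 and Eif4h were higher, and Eif4e3, Eif4g2 and Eif4g3 lower, in both genotypes. Eif4a1 encodes a helicase that unwinds the 5′ leader. Its values were 12.70 to 12.91 (median 12.89) in Fmr1 KO polyribosomal RNA, against 12.16 to 12.48 (median 12.42) in KO total RNA. In WT they were 12.68 to 13.11 (median 12.91) in polyribosomal RNA, against 12.23 to 12.59 (median 12.43) in total RNA. There was no overlap in either genotype, and the difference was 0.47 in both (SE 0.07 in KO and 0.10 in WT). All 3 probe sets of Eif4a1 were higher, at 0.28 to 0.47 in KO and 0.32 to 0.47 in WT.

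Eif4a2, the close relative of Eif4a1 that is abundant in brain, showed a smaller rise. It ran from 12.74 to 12.86 (median 12.80) in Fmr1 KO polyribosomal RNA, against 12.53 to 12.64 (median 12.61) in KO total RNA. The WT range was 12.78 to 13.01 (median 12.89) in polyribosomal RNA, against 12.58 to 12.76 (median 12.70) in total RNA. Although the arrays did not overlap and 12 of 12 lysates were higher, the differences of 0.20 and 0.21 were close to the threshold, with limma adjusted p = 0.0316 in KO and 0.0388 in WT. The KO call was lost without lysate 1, 2, 3, 4 or 6 and the WT call without lysate 1, 2, 3, 5 or 6. Eif4h, which stimulates the helicase, rose by 0.43 in KO and 0.44 in WT, and its other 2 tested probe sets rose too. Eif4b, which does the same, gave -0.18 and 0.00 by its brightest probe set and did not pass.

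Eif4g2 and Eif4g3 encode relatives of the scaffold eIF4G1, whose mRNA was not analysed here. Eif4g2 had values of 12.20 to 12.57 (median 12.40) in Fmr1 KO polyribosomal RNA, against 12.86 to 12.98 (median 12.94) in KO total RNA. In WT they were 12.07 to 12.64 (median 12.40) in polyribosomal RNA, against 12.87 to 12.97 (median 12.91) in total RNA. Every polyribosomal array was below every total array, and the difference was -0.53 in both genotypes (SE 0.08 in KO and 0.09 in WT). The product of Eif4g2, also called DAP5, lacks the part of eIF4G that binds eIF4E.

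Eif4g3 ran from 6.95 to 7.86 (median 7.49) in Fmr1 KO polyribosomal RNA, against 7.71 to 8.28 (median 8.04) in KO total RNA. Its WT values were 7.15 to 7.80 (median 7.42) in polyribosomal RNA, against 7.70 to 8.28 (median 7.97) in total RNA. Here the arrays overlapped, while within lysates it was lower in 12 of 12, by 0.56 in KO and by 0.58 in WT on average (SE 0.08 and 0.12).

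The cap-binding proteins were not uniform. Eif4e, the cap-binding protein of general initiation, gave 0.03 in KO and -0.09 in WT and did not pass. Eif4e2, a cap-binding protein known as a repressor, gave -0.02 and -0.17 and did not pass either. Among their other probe sets, 1 of Eif4e2 passed as lower in both genotypes, at -0.36 in KO and -0.37 in WT, and a dim 1 of Eif4e passed as lower in WT, at -0.24. Eif4e3 fell by 0.43 in KO and 0.41 in WT. Eif4enif1, which carries eIF4E into the nucleus, gave 0.16 in KO, which did not pass, and rose by 0.33 in WT.

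**Figure D2:**
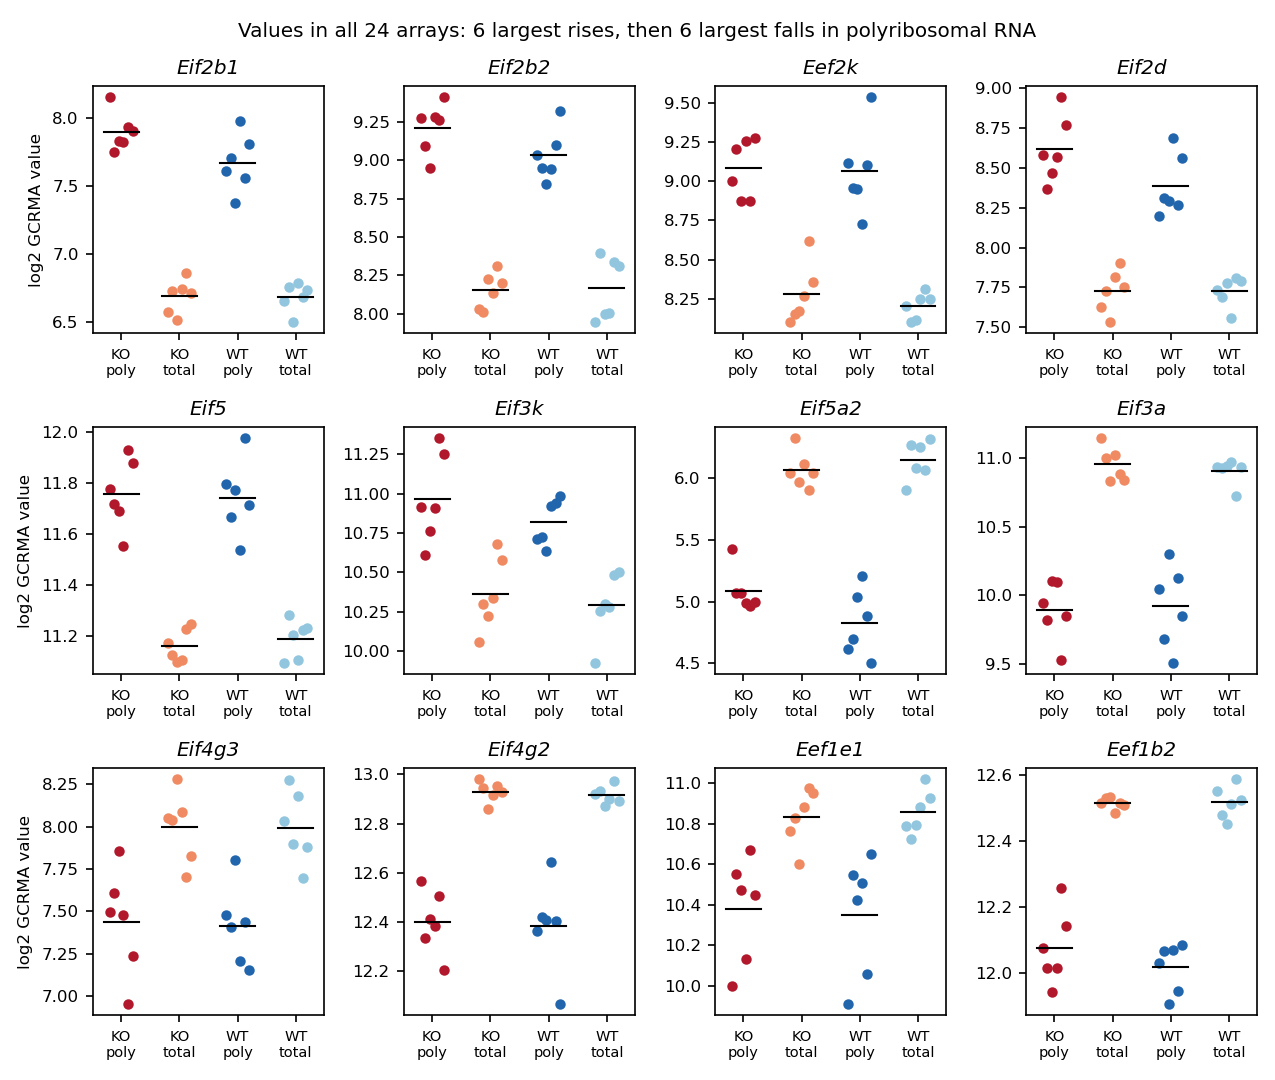
Log2 values (vertical axis, a scale per panel) of the 6 factor genes with the largest rises and the 6 with the largest falls that passed in both genotypes and went the same way in 12 of 12 lysates. Points are arrays and bars are group means, in the order Fmr1 KO polyribosomal, Fmr1 KO total, WT polyribosomal, WT total. The polyribosomal and total arrays of a genotype do not overlap for Eif2b1, Eif2b2, Eef2k, Eif2d, Eif5, Eif5a2, Eif3a, Eif4g2 and Eef1b2.

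Eif5 encodes the factor that makes eIF2 hydrolyse its GTP at the start codon. By its brightest probe set it ran from 11.55 to 11.93 (median 11.75) in Fmr1 KO polyribosomal RNA, against 11.10 to 11.24 (median 11.15) in KO total RNA. The WT range was 11.54 to 11.98 (median 11.74) in polyribosomal RNA, against 11.09 to 11.28 (median 11.21) in total RNA. This probe set rose without overlap, by 0.60 in KO and 0.56 in WT (SE 0.07 and 0.09), but the other probe sets of Eif5 differed from it, as described below.

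By its brightest probe set, Eif5a2 showed the largest fall of all factors in WT, and the next largest after Eif3a in KO. It is the more tissue-restricted of the pair of genes for eIF5A, the hypusine-bearing factor that helps ribosomes past stalls. Its values were 4.96 to 5.43 (median 5.03) in Fmr1 KO polyribosomal RNA, against 5.90 to 6.33 (median 6.04) in KO total RNA. In WT they were 4.50 to 5.21 (median 4.79) in polyribosomal RNA, against 5.91 to 6.32 (median 6.17) in total RNA. The arrays did not overlap, and the difference was -0.98 in KO (SE 0.09, limma adjusted p = 3.87e-06, lower in 6 of 6 lysates) and -1.33 in WT (SE 0.11, limma adjusted p = 1.92e-06, lower in 6 of 6 lysates). The dimmer probe set of Eif5a2 fell less. It passed as lower in KO, at -0.36, and was too dim to be tested in WT. Its mean difference was -0.43 over the 12 lysates, and it was lower in 12 of 12.

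Its paralog Eif5a, the general form, did not pass. It ran from 13.18 to 13.57 (median 13.40) in Fmr1 KO polyribosomal RNA, against 13.18 to 13.31 (median 13.28) in KO total RNA. In WT it ran from 13.25 to 13.62 (median 13.43) in polyribosomal RNA, against 13.19 to 13.38 (median 13.29) in total RNA. These arrays overlapped, with differences of 0.12 in KO and 0.13 in WT. Eif5b, the subunit-joining GTPase, fell by 0.29 in KO and 0.32 in WT, and the KO call was lost without lysate 1 or 6. Eif6, which keeps free large subunits from joining, gave 0.16 and 0.04 and did not pass.

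The 5 mRNAs of the eEF1 group included no riser. In KO 5 fell, and in WT 3 fell and 2 did not pass. Of all genes tested, 28.2% were lower in KO and 28.4% in WT. Eef1b2, an exchange factor of eEF1A, ran from 11.94 to 12.26 (median 12.05) in Fmr1 KO polyribosomal RNA, against 12.48 to 12.53 (median 12.51) in KO total RNA. In WT it ran from 11.91 to 12.08 (median 12.05) in polyribosomal RNA, against 12.45 to 12.59 (median 12.52) in total RNA. There was no overlap, and it fell by 0.44 in KO and by 0.50 in WT (SE 0.08 each).

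Eef1e1, whose product sits in the complex of tRNA synthetases, had values of 10.00 to 10.67 (median 10.46) in Fmr1 KO polyribosomal RNA, against 10.60 to 10.98 (median 10.86) in KO total RNA. In WT it had 9.91 to 10.65 (median 10.47) in polyribosomal RNA, against 10.73 to 11.02 (median 10.84) in total RNA. The arrays overlapped in KO and not in WT, and 12 of 12 lysates were lower, by 0.45 and 0.51 on average (SE 0.10 and 0.12). Eef1d, the other exchange factor measured, fell by 0.28 in KO and 0.23 in WT, and the WT call was lost without lysate 2, 3, 4, 5 or 6 and with median centring. Its second tested probe set gave -0.52 in KO and -0.58 in WT.

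Eef1a1 and Eef1a2 encode the pair of eEF1A forms, and in rodent neurons the second replaces the first after birth. Eef1a1 ran from 12.80 to 13.13 (median 13.04) in Fmr1 KO polyribosomal RNA, against 13.13 to 13.30 (median 13.18) in KO total RNA. In WT it ran from 12.92 to 13.27 (median 13.17) in polyribosomal RNA, against 13.14 to 13.42 (median 13.26) in total RNA. The arrays overlapped in both genotypes. The difference was -0.19 in KO (limma adjusted p = 0.0413, lower in 6 of 6 lysates) and -0.11 in WT (limma adjusted p = 0.259, lower in 5 of 6). The KO call was lost without lysate 1, 3, 4, 5 or 6, with quantile normalization and with median centring, and the limma adjusted p over all alternatives ran from 0.00231 to 0.132.

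Eef1a2 ran from 10.73 to 11.52 (median 11.20) in Fmr1 KO polyribosomal RNA, against 11.33 to 11.66 (median 11.55) in KO total RNA. Its WT values were 11.00 to 11.65 (median 11.41) in polyribosomal RNA, against 11.45 to 11.68 (median 11.47) in total RNA. With overlapping arrays, the difference was -0.36 in KO (limma adjusted p = 0.00781, lower in 6 of 6 lysates) and -0.13 in WT (limma adjusted p = 0.247, lower in 5 of 6). The KO minus WT contrast of these differences did not pass for either gene.

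Of the methyltransferases that modify eEF1A, Eef1akmt2 fell by 0.29 in KO and 0.35 in WT. Eef1aknmt gave 0.26 in KO, which did not pass, and rose by 0.42 in WT. Its other tested probe set passed as higher in both genotypes, at 0.37 in KO and 0.30 in WT. In 7 of 14 alternative settings Eef1aknmt passed in KO. Its brightest probe set lay near the dim level of 4, with means of 4.10 in KO total RNA and 3.96 in WT total RNA. Eef1akmt1 gave -0.08 and -0.28 and passed in neither.

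Eef2 and its kinase went opposite ways. Eef2, the translocase, fell by 0.32 in KO (limma adjusted p = 0.00387) and 0.23 in WT (limma adjusted p = 0.0372), and the WT call was lost without lysate 1, 3, 4, 5 or 6, with quantile normalization and with median centring (limma adjusted p over all alternatives 0.00418 to 0.112). Eef2k encodes the kinase that phosphorylates eEF2 and slows elongation. It ran from 8.88 to 9.27 (median 9.10) in Fmr1 KO polyribosomal RNA, against 8.11 to 8.62 (median 8.22) in KO total RNA. In WT it ran from 8.73 to 9.53 (median 9.03) in polyribosomal RNA, against 8.11 to 8.31 (median 8.23) in total RNA. No arrays overlapped, and the difference was 0.80 in KO (SE 0.11, limma adjusted p = 4.82e-05, 6 of 6 lysates) and 0.86 in WT (SE 0.10, limma adjusted p = 2.56e-05, 6 of 6 lysates). Its other 2 probe sets gave 0.48 and 0.64 in KO and 0.79 and 0.56 in WT.

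Over all 53 genes, the polyribosomal arrays were entirely above the total arrays for 12 genes and entirely below for 10 in KO, and for 13 and 8 genes in WT. Over all genes tested the share was 24.1% entirely above and 18.1% entirely below in KO, and 21.8% and 18.3% in WT. The factor counts are lower than those past the test, which compares RNA kinds within a lysate.

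Many factor genes have several probe sets, which can read different transcript ends or forms. Of the genes with at least 2 tested probe sets, 28 in KO and 27 in WT, 13 in KO and 11 in WT had all of them past the test in one direction. By probe set, 31 of 106 were higher and 32 lower in KO, against 65.9% of all probe sets past the test in either direction, and 32 of 105 were higher and 30 lower in WT, against 65.4%. For 2 genes, Eif5 and Eif2s2, probe sets of the gene passed in opposite directions in both genotypes. The brightest probe set of Eif5 rose as given above. The next 2 in brightness gave 0.02 and -0.07 in KO and 0.05 and -0.14 in WT, without passing, and the fourth gave 0.22 in KO, which passed, and 0.11 in WT, which did not. The dimmest ran from 3.27 to 3.67 in Fmr1 KO polyribosomal RNA, against 4.90 to 5.30 in KO total RNA, and from 3.14 to 3.53 in WT polyribosomal RNA, against 4.94 to 5.46 in WT total RNA. It passed as lower, but its polyribosomal values lay under the level of 4 taken as dim.

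For Eif2s2, the brightest probe set and another did not pass, 2 rose by 0.65 and 0.49 in KO and by 0.56 and 0.45 in WT, and the last fell by 0.26 in KO and by 0.37 in WT. The riser with the larger difference ran from 10.63 to 11.16 in Fmr1 KO polyribosomal RNA, against 10.18 to 10.35 in KO total RNA, and from 10.45 to 11.11 in WT polyribosomal RNA, against 10.12 to 10.33 in WT total RNA. So the value near 0 given for Eif2s2 by its brightest probe set does not stand for all of its transcripts. Eif4b likewise had a brightest probe set that did not pass, while its others fell by 0.35 and 0.85 in KO, and 1 of them, at -0.48, passed in WT. For Eif4g2 the 3 tested probe sets all fell, by 0.30 to 0.95 in KO and by 0.26 to 1.00 in WT.

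**Figure D3:**
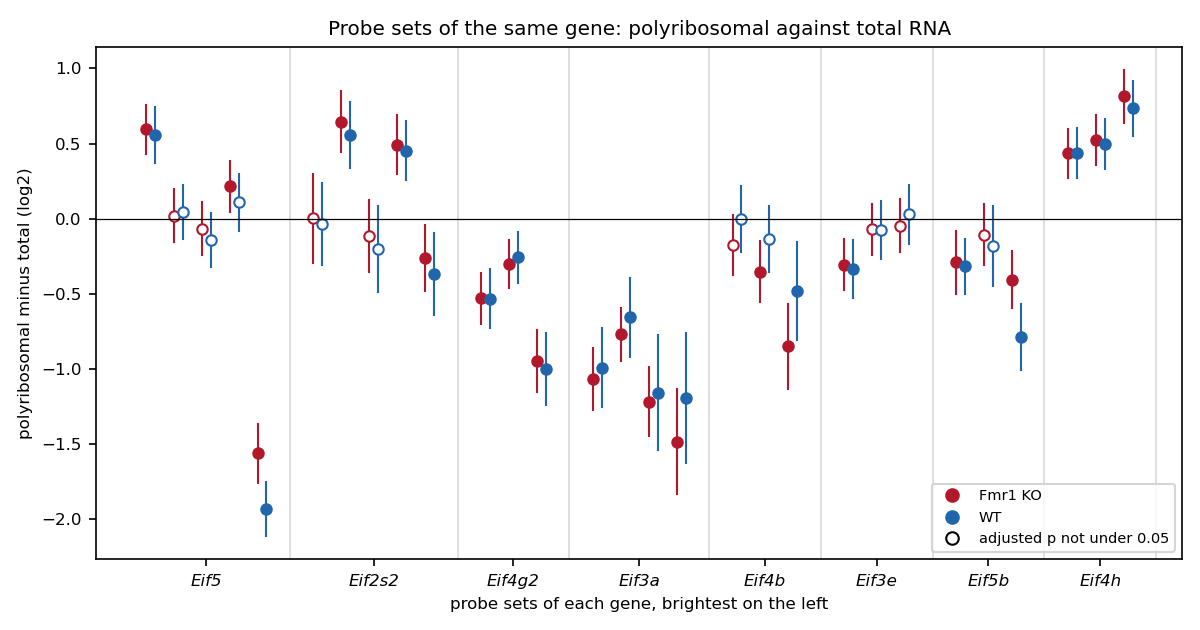
Polyribosomal minus total difference (log2, vertical axis) with 95% limma confidence intervals for every tested probe set of 8 factor genes, brightest on the left within each gene. Fmr1 KO is drawn left of WT, and filled points passed the test. Probe sets of Eif3a, Eif4g2 and Eif4h go one way, and those of Eif5 and Eif2s2 go both ways.

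Many mRNAs of the translation machinery are known to start with a C followed by further pyrimidines, the 5′ terminal oligopyrimidine tract through which mTOR signalling sets their translation. Start sites were taken from RefSeq (GRCm38.p6), which held 46 of the 56 genes, and the run of C and T bases beginning with C was read along the gene's own strand only. A run of at least 5 bases that began within 5 bases of an annotated start was present in 13 of 46 factor genes (28.3%), against 21.2% of all 27025 genes in the table. Counted strictly from the annotated first base, it was present in 2 of 46 (4.35%), Eif3f and Eif2s3x, against 3.01% of all genes. Eif3f, Eif3l, Eif2b2, Eif1ad and Eif2ak3 are shown because they had a run and passed the test in both genotypes, and Eif2s3x because its run covers the annotated first base. Eef1a1 and Eef2 are shown as known mRNAs of this class, the second of which had no run at this annotated start. Each holds 15 bases before the annotated start and 15 from it, 5′ to 3′, and capitals mark the longest run.
Eif3f: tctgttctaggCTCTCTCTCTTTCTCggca
Eif3l: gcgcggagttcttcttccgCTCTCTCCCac
Eef1a1: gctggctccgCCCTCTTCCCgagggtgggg
Eif2b2: tttcaccgagcggaagttgaCCTCTCTCgg
Eif1ad: atccggctttcgatggCTTTTgtttctcca
Eif2ak3: cgcagagcagacgcacggaaCCCTCgctca
Eif2s3x: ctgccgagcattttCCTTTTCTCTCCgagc
Eef2: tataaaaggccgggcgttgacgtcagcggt

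The windows lie at chr7:108934400-108934429 on the plus strand for Eif3f, chr15:79075208-79075237 (plus) for Eif3l, chr9:78481710-78481739 (minus) for Eef1a1, chr12:85219466-85219495 (plus) for Eif2b2, chr19:5366798-5366827 (plus) for Eif1ad, chr6:70844500-70844529 (plus) for Eif2ak3, chrX:94212637-94212666 (minus) for Eif2s3x and chr10:81176616-81176645 (plus) for Eef2. Of the 13 genes with a run near the start, 3 were higher and 3 lower in polyribosomal RNA in KO, and 6 were higher and 3 lower in WT. Of the 30 tested genes without one, 9 were higher and 9 lower in KO, and 11 were higher and 8 lower in WT. Among all genes tested, 38.7% were higher and 28.2% lower in KO, and 37.5% and 28.4% in WT. Of the 5 genes with a run that passed in both genotypes, Eif3f and Eif3l, with runs of 15 and 9 bases, fell, and Eif2b2, with a run of 8, and Eif1ad and Eif2ak3, with 5 each, rose. Annotated starts may lie some bases from the start used in cortex, so a missing run says only that these letters are not in the window.

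No factor mRNA passed between genotypes. In polyribosomal RNA 0 of 53 genes passed, against 0.0103% of the 9664 genes tested (1 gene, Fmr1 itself). In total RNA 0 of 53 passed, against 0.0413% of 9690 (4 genes). The 3 lower ones, Fmr1 among them, were 0.031%. Counted by probe set, 0 of 103 factor probe sets passed in polyribosomal RNA, against 0.017% of all 17687, and 0 of 105 in total RNA, against 0.0392% of all 17850. At an unadjusted limma p below 0.05 there were 0 factors in polyribosomal RNA and 1 in total RNA. The KO minus WT differences ran from -0.21 to 0.26 for polyribosomal arrays and from -0.14 to 0.14 for total arrays. For none of the 53 genes did the KO arrays lie entirely above or below the WT arrays, in either RNA kind, against 0.103% of all genes tested in polyribosomal RNA and 0.32% in total RNA.

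The size of any difference was bounded by its interval. A typical 95% confidence interval reached 0.24 to either side in polyribosomal RNA and 0.14 in total RNA (median over the 53 genes). Both bounds lay within 0.5 for 48 genes in polyribosomal RNA and for 53 genes in total RNA. The farthest bound was 0.58, for Eef1akmt1 in polyribosomal RNA, a 1.49-fold difference, and 0.35, for Eef1aknmt in total RNA, 1.27-fold. Differences inside these intervals remain possible with 6 arrays a group. The intervals are not adjusted for the number of probe sets, so they do not mark the smallest difference that could pass.

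The smallest p-values in polyribosomal RNA belonged to factors already named. Eif2ak1 ran from 6.60 to 7.02 (median 6.73) in Fmr1 KO, against 6.29 to 6.77 (median 6.56) in WT, with a difference of 0.23 (interval -0.003 to 0.46). For Eif2b1 the difference was 0.23 (-0.01 to 0.46), for Eif5a2 0.26 (-0.01 to 0.53) and for Eif2d 0.23 (-0.02 to 0.48). In each of these 4 genes the KO and WT arrays overlapped, and the smallest unadjusted limma p was 0.05301, with an adjusted p of 0.9999. In total RNA the same 4 genes gave 0.01, 0.00, -0.08 and 0.00.

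In total RNA the smallest p belonged to Eef1d. It ran from 10.77 to 11.00 (median 10.80) in Fmr1 KO total RNA, against 10.65 to 10.81 (median 10.72) in WT total RNA. The difference was 0.12, with an adjusted limma p of 0.9819 and an unadjusted one of 0.04745. Eif3d followed with 9.57 to 9.81 (median 9.64) in KO total RNA, against 9.66 to 10.00 (median 9.79) in WT total RNA, a difference of -0.14. Eef1akmt1 ran from 7.49 to 7.69 (median 7.61) in KO total RNA, against 7.58 to 7.88 (median 7.66) in WT total RNA, a difference of -0.10. Eif4b ran from 10.06 to 10.30 (median 10.17) in KO total RNA, against 9.99 to 10.19 (median 10.08) in WT total RNA, a difference of 0.08. The KO and WT arrays of all 4 genes overlapped.

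The polyribosomal minus total difference itself was compared between the 6 KO and the 6 WT lysates, which tests whether the polyribosomal share of an mRNA depended on genotype. It passed for 0 of 53 factors, against 0% of the 9955 genes tested. The smallest unadjusted p was that of Eif5a2. Its fall ran from -1.26 to -0.61 over KO lysates, against -1.82 to -1.05 over WT lysates, so the lysates overlapped. The KO minus WT contrast was 0.34 (interval 0.03 to 0.66), with an adjusted limma p of 0.9991 and an unadjusted one of 0.03414. Eif2ak1 and Eif2b1 came next with 0.22 each and did not reach an unadjusted p of 0.05. For Eif2ak1 the KO lysates ran from -0.24 to 0.13, against -0.52 to -0.08 in WT lysates. For Eif2b1 the KO lysates ran from 1.02 to 1.58, against 0.87 to 1.19 in WT lysates. For 47 of 53 factors both bounds of this contrast lay within 0.5.

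**Figure D4:**
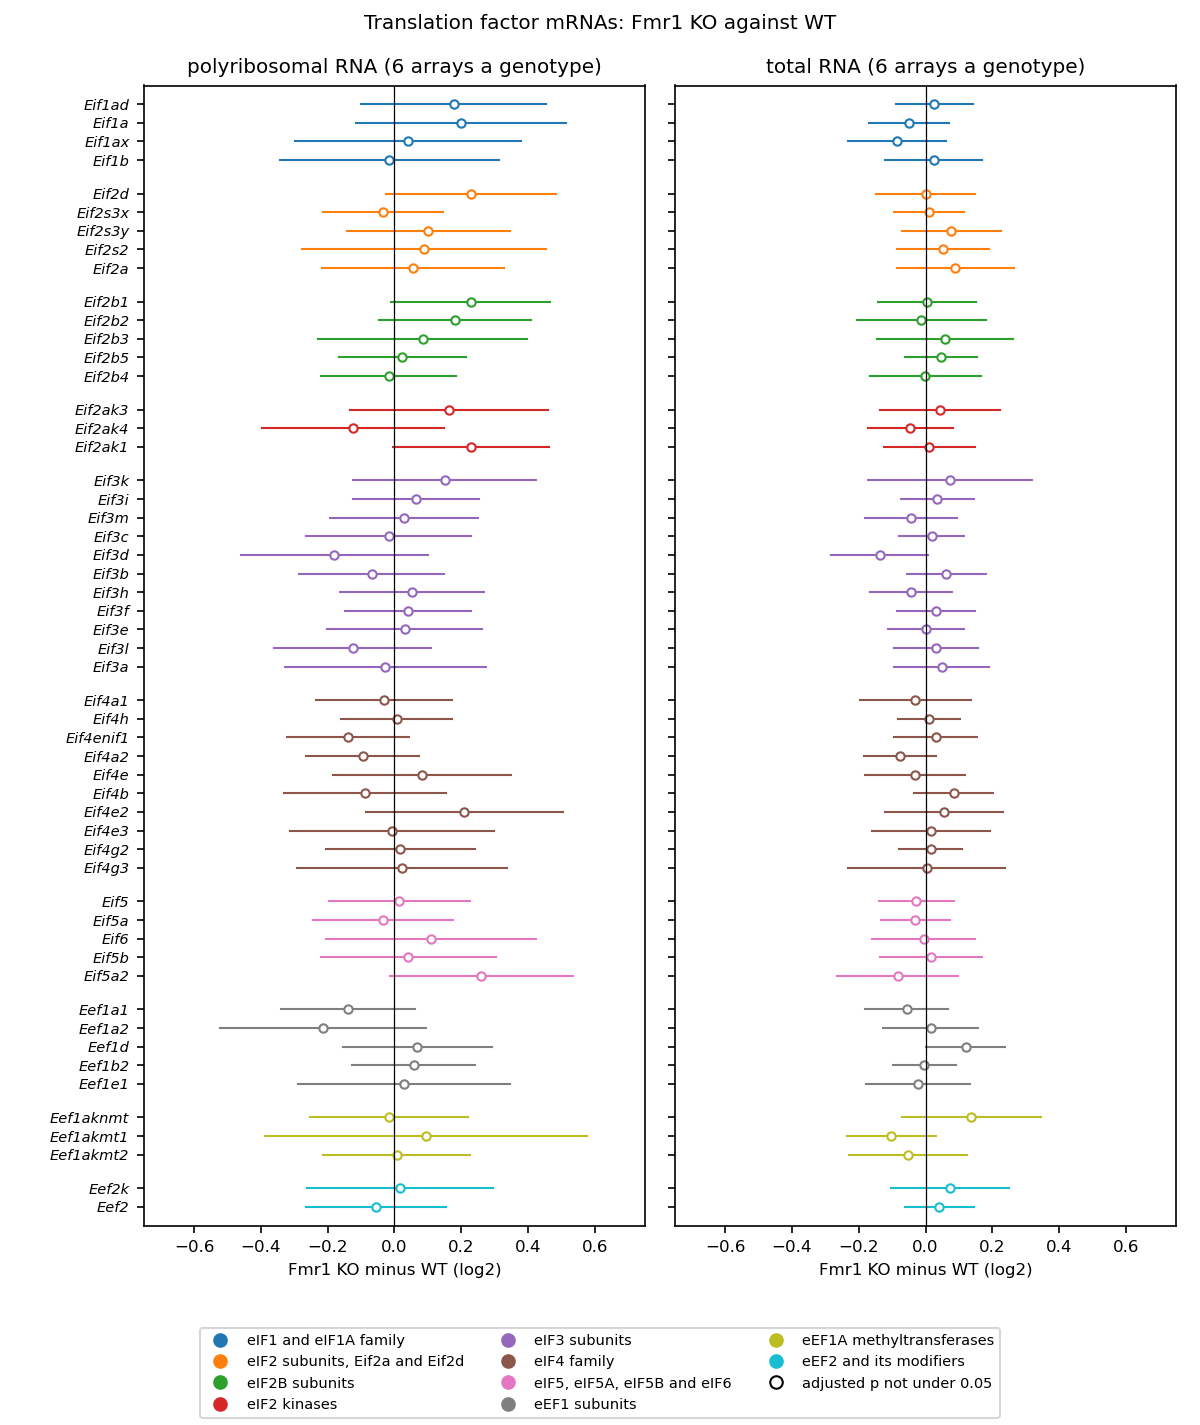
Fmr1 KO minus WT difference (log2, horizontal axis) of the 53 tested factor genes in polyribosomal RNA on the left and total RNA on the right, with 95% limma confidence intervals, in the order used for the polyribosomal against total plot. No gene passed the test, and the intervals are narrower in total RNA.

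Other genes of the translation pathway were set beside the factors. Of 36 such genes on the arrays, 35 were tested. In polyribosomal RNA 19 were higher and 9 lower in KO, and 19 higher and 8 lower in WT. All genes tested gave shares of 38.7% higher and 28.2% lower in KO, and 37.5% and 28.4% in WT. The medians of the 35 genes were 0.32 in KO and 0.30 in WT. The factors had medians of 0.05 in KO and -0.003 in WT. No test of the difference between these lists was made.

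The mitochondrial factors, which serve the ribosomes of the organelle, showed no fall. Of 7 tested, 7 were higher in KO and 6 in WT, led by Tsfm, the mitochondrial exchange factor, at 1.14 and 0.92. The share of all genes tested was 38.7% higher and 28.2% lower in KO, and 37.5% and 28.4% in WT. Tufm, the mitochondrial counterpart of eEF1A, rose by 0.51 in KO and 0.71 in WT, whereas the cytoplasmic Eef1a1 did not rise. Of 6 termination and recycling genes, 4 were higher and 1 lower in KO, and 4 were higher and 0 lower in WT. Among these Pelo, which rescues stalled ribosomes, gave 1.14 and 1.21, and Etf1, the release factor that reads stop codons, 0.72 and 0.43.

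The mRNAs of poly(A)-binding proteins and their partners leaned the other way, with 1 of 6 higher and 4 lower in each genotype. Among all genes tested, 38.7% were higher and 28.2% lower in KO, and 37.5% and 28.4% in WT. Paip2, an inhibitor of the poly(A)-binding protein, fell by 1.40 in KO and by 1.58 in WT. The hypusine enzymes, which act on the product of Eif5a and Eif5a2, were split: Dohh, the hydroxylase of the second step, rose by 0.71 and 0.72, and Dhps, the synthase of the first, fell by 0.47 and 0.52. A similar split held for the partners Mcts1, at 0.72 and 0.54, and Denr, at -0.58 and -0.80, whose joint product resembles the one encoded by Eif2d. Eif4ebp2, the main brake on eIF4E in brain, fell by 1.14 in KO and by 1.23 in WT, while Eif4e itself did not pass by its brightest probe set. None of the 35 genes passed between genotypes in polyribosomal RNA, in total RNA or in the contrast of both.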

How the data were processed

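The authors deposited log2 values of 24 arrays made with GCRMA, per the submitters' processing notes, whose version is not given in the sources used here. The log2 scale was judged from the range of the values. Symbols came from the platform annotation: 34945 probe sets had 1, 932 several and 9160 none. The factors and lists were chosen with earlier results of these data known. Any factor could be named. Per-array values were given for the 6 largest rises and 6 largest falls past the threshold in both genotypes and alike in 12 of 12 lysates, for the 4 smallest p of each genotype comparison and the 3 of the contrast, and for near paralogs.

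limma 3.58.1 in R 4.3.3 (lmFit, eBayes, two-sided, Benjamini-Hochberg over all probe sets tested, threshold 0.05) was used, and tested on simulated data. The sample titles give a replicate number within each group and do not name the lysate. The protocol takes both RNA kinds from 1 lysate. Polyribosomal and total arrays of a genotype with the same number were therefore taken as 1 lysate, and the number entered as a block. The residuals of arrays matched in this way correlated at 0.156 to 0.474 in KO and 0.0211 to 0.525 in WT. KO and WT arrays of a number correlated at -0.137 to 0.625 in polyribosomal and 0.133 to 0.532 in total RNA, and that pairing was an alternative. Other alternatives changed the dim-probe filter, normalization, centring, probe set choice, prior variance, random lysate block and left out each replicate. No scan date or batch was used, no 2 arrays were identical, and the number of arrays limits the precision. Figures used matplotlib 3.10.9 in Python 3.11.15.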

Additional observations from a re-analysis of the deposited data

Results flagged for a closer look

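Of 136 groups of 6 values examined, 6 held a value far from its neighbours for the range of the group, and chance alone marks about 1 in 20. WT lysate 4 stood apart over the factors as a whole: its polyribosomal minus total differences correlated at 0.706 with the mean of the other WT lysates over the 53 genes, against 0.854 to 0.928 for the others. In the same lysate Eif3d gave a difference of -0.34, while the other WT lysates gave 0.25 to 0.41. Eif4a1 was low in both arrays of Fmr1 KO lysate 3, at 12.70 in polyribosomal RNA, where the others had 12.84 to 12.91, and at 12.16 in total RNA, where the others had 12.37 to 12.48. Eif5a2 was high in Fmr1 KO polyribosomal RNA of lysate 1, at 5.43, where the others had 4.96 to 5.07. Eif3a was low in WT total RNA of lysate 5, at 10.72, where the others had 10.93 to 10.97.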

How the results depend on the processing

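Every alternative gave 0 factors between genotypes, with the replicate number as a block as well (replicate block), which gave 0 higher and 0 lower in polyribosomal RNA, in total RNA and in the contrast. For polyribosomal against total RNA, KO counts were 12 to 18 higher and 15 to 17 lower (13 to 16 and 14 to 16 without a replicate), and WT counts 16 to 19 and 13 to 15 (13 to 20 and 11 to 14 without a replicate). With no replicate block they were 16 and 16 in KO and 19 and 15 in WT. Without replicate 4 they were 13 and 15 in KO, and 20 and 14 in WT. Of the calls, 25 of 30 in KO and 22 of 33 in WT passed in every alternative. The KO median of 0.05 became 0.0025 with quantile normalization, 0.012 without replicate 1 and 0.014 without the cross-binding kinds of probe set. With the mean of all tested probe sets, Eif5 turned to -0.16 in KO (limma adjusted p = 0.06687) and -0.27 in WT (limma adjusted p = 0.008779), since that mean includes its dim, falling probe set. Without the cross-binding kinds, Eif3e in WT turned to 0.031 (limma adjusted p = 0.7746), since another probe set then stands for it. Signal near the dim level limits Eef1aknmt, Eif5a2 and the dimmest Eif5 probe set.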
